A study of Zea mays with 12 samples.

Results

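Sharp mid to late transitions are the short stretches of the maize genome in which replication timing passes from mid S phase to late S phase within 40 kb. They were taken from a map that divides the genome of the inbred B73 into timing classes, named ES, MS and LS for early, mid and late S and ESMS and MSLS for neighbouring stages. A segment was counted as a sharp transition when its class was MSLS, its length was at most 40 kb, and it touched an MS segment on one side and an LS segment on the other, in either order. There were 1769 of them among 20613 segments, or 48.2% of the 3671 MSLS segments. Together they covered 51.22 Mb, 2.44% of classified sequence. The members were chosen by timing class, segment length and the classes of the neighbours, so these values describe the choice and carry no test.

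The map came from Repli-seq: replicating cells take up a label, their nuclei are sorted by stage of S phase, and the labelled DNA is sequenced stage by stage. Seedlings of B73, raised for 3 days at 28 C, were labelled with 25 µM of the thymidine analogue EdU for 20 min, followed by 100 µM thymidine. Nuclei of the terminal 1 mm of the root were sorted into early S, mid S and late S, whose labelled DNA was immunoprecipitated, and into G1, whose DNA was sequenced without immunoprecipitation and served as reference. Each of the 4 groups had 3 biological replicates, or 12 libraries, and all groups shared the genotype, the EdU pulse and the thymidine chase. The root tip holds many cell types, and the sort was by EdU signal and DNA content only. The available values were 1 segmentation in windows of 10 kb with no library columns, no ratios and no read counts. Depth per library and error between replicates are unknown, and a replicate test of a single transition could not be made. The SDs below are therefore taken across the 10 chromosomes, and these belong to 1 genome rather than to replicate plants.

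DNA replication starts at many origins, and neighbouring origins that fire at similar times form domains. Between an earlier and a later domain lies a timing transition, which forks from the earlier side or successive firing of origins can cross. In maize, late replication is known mainly from heterochromatin rich in retrotransposons, and earlier replication from the gene-rich part of the genome. No genome sequence was at hand, so the transitions are given by position and no sequence of them is printed. Positions follow the deposited segmentation. Its genome build was not given in the sources used here.

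Most passages between MS and LS were sharp. Of 2365 MSLS segments with MS on one side and LS on the other, 1769 (74.8%) were at most 40 kb long, and the other 596 are called broad transitions here. The most frequent length was 30 kb, with 801 transitions, followed by 20 kb with 479 and 40 kb with 424. Only 65 took a single window of 10 kb. Just outside the limit, 187 transitions were 50 kb long, and the longest broad one was 330 kb. The number of transitions fell off on either side of 30 kb without a gap at 40 kb.

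**Figure D1:**
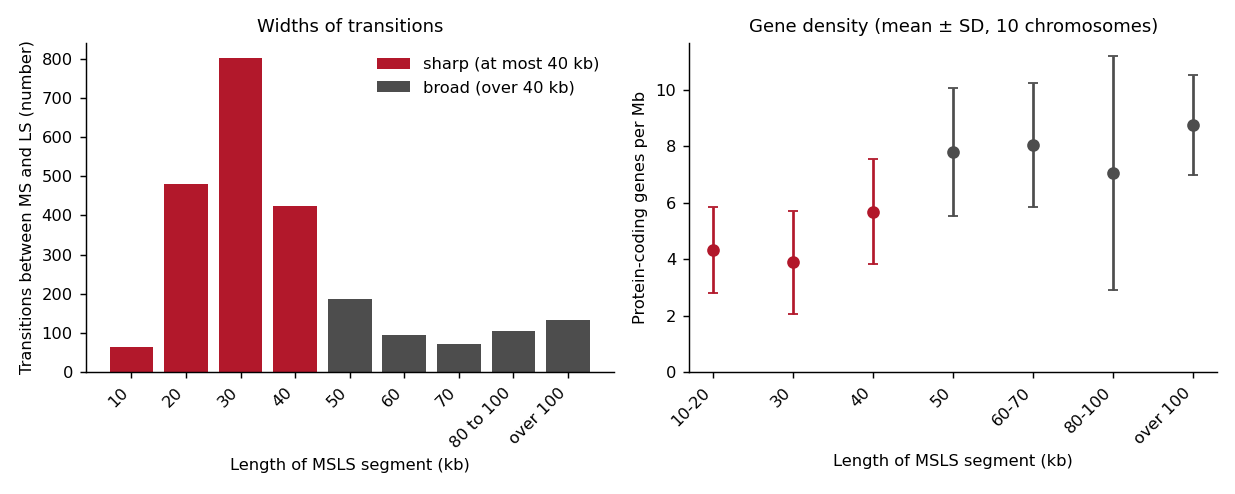
Left, number of MSLS segments between an MS and an LS segment (y axis) by their length in kb (x axis), with sharp transitions in red and broad ones in grey. Right, protein-coding genes per Mb (y axis, mean ± SD over 10 chromosomes) by length in kb (x axis). The 30 kb bar is the highest at 801 transitions, and gene density is 3.90 at 30 kb, 5.68 at 40 kb and 7.79 at 50 kb.

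The sharp transitions ran in either direction about equally often. With rising coordinates 889 passed from MS to LS and 880 from LS to MS. Chromosome 4 had the most, 259, and chromosome 9 the fewest, 118. Per 100 Mb of classified sequence there were 85.4 ± 15.2 (SD, n = 10). Chromosome 1 was lowest at 58.3 and chromosome 4 highest at 105.2. The share of passages that were sharp varied less, at 75.0% ± 4.22, from 68.6% on chromosome 9 to 82.7% on chromosome 6. The mean length of a sharp transition was 29.0 kb ± 0.891, between 27.5 kb on chromosome 10 and 30.5 kb on chromosome 8.

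Sharp transitions lay mainly in the chromosome interiors, as broad ones did. On average over the chromosomes, 16.0% ± 9.90 of sharp transitions lay in the outer 20% at either end, against 15.8% ± 6.88 of broad ones (SD, n = 10). The difference was 0.221 percentage points ± 6.84, higher on 5 of 10 chromosomes, and did not pass an exact two-sided sign-flip test over the chromosomes (p = 0.924, adjusted p = 0.924). P-values here are adjusted by Benjamini-Hochberg over 17 such tests. The smallest p that the 1024 sign patterns allow is 0.00195. The direction of this difference turned with the outer 30% (-4.49 points) and with limits of 30 kb (-1.16) and 50 kb (-0.683), also without passing. Between 40% and 45% of the chromosome length stood 194 sharp transitions, the most of any 5% bin.

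**Figure D2:**
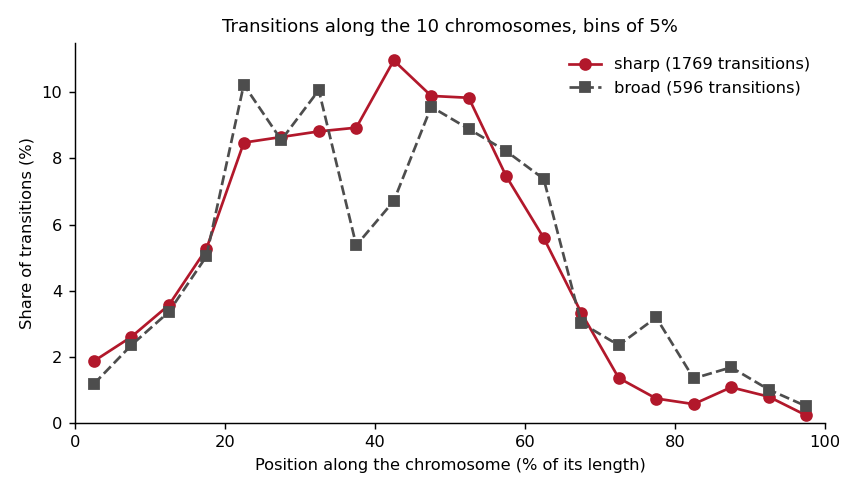
Share of transitions (y axis, %) in bins of 5% of the chromosome length (x axis, from the lowest coordinate), pooled over 10 chromosomes, for sharp transitions (red circles) and broad transitions (grey squares). Sharp transitions peak at 11.0% between 40% and 45%, where broad ones stand at 6.71%, and both are rare beyond 70%.

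The LS segments beside sharp transitions were longer than those beside broad ones, and the MS segments were shorter. Counted once for each transition, the median LS flank was 130 kb beside sharp transitions and 90 kb beside broad ones. The median MS flank was 70 kb beside sharp transitions and 90 kb beside broad ones. LS flanks of 300 kb or more stood beside 348 sharp transitions (19.7%) and beside 73 broad ones (12.2%). By length of the transition, the median LS flank was 160 kb at 10 kb and at 20 kb, 130 kb at 30 kb, 100 kb at 40 kb and 80 kb at 50 kb. These lengths come from the same segmentation as the choice of members, so they were not tested.

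The 3 longest LS segments that a sharp transition touched lay on chromosomes 6, 7 and 1. The first spanned 240001 to 5390000 on chromosome 6 (5.15 Mb, 2 protein-coding genes) and ended in a single-window transition from 5390001 to 5400000. The next, from 63390001 to 67480000 on chromosome 7 (4.09 Mb, 6 genes), passed to MS within 30 kb, from 67480001 to 67510000. The third, from 131270001 to 135010000 on chromosome 1 (3.74 Mb, 7 genes), had a sharp transition at both ends, of 20 kb before it and 40 kb after it. Among MS segments touched by a sharp transition, the longest was 660 kb on chromosome 2 (139950001 to 140610000) and held 9 genes. It was followed by one of 620 kb on chromosome 3 (122770001 to 123390000) with 4 genes, and by one of 600 kb on chromosome 2 (47870001 to 48470000), also with 9.

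Some LS domains were bounded by sharp transitions on both sides, where most passages were sharp in any case. The 1769 transitions touched 1324 of the 1940 LS segments (68.2%), 445 of them at both ends. They touched 1541 of the 5942 MS segments (25.9%), 228 of them at both ends. Among 785 LS segments with a passage to MS at both ends, 445 had 2 sharp ends, 275 had 1 sharp and 1 broad end, and 65 had 2 broad ends. The median length was 130 kb with 2 sharp ends, 100 kb with 1 of each and 50 kb with 2 broad ends. Of the ends of these 785 segments 74.2% were sharp. Seen from a sharp end of these segments, the other end was sharp in 76.4% of 1165 cases. Seen from a broad end, it was sharp in 67.9% of 405. For the 378 MS segments between 2 such passages these shares were 80.1% of 569 and 60.4% of 187, beside 75.3% of all their ends.

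Beyond most MS flanks the timing either went on towards early S or turned back. On the far side of the MS segment lay ESMS for 837 sharp transitions (47.3%) and ES for 85 (4.80%), so that the passage continued a slope towards earlier replication. For 743 (42.0%) the far side was again MSLS, so that the MS segment was a local peak of earlier timing between later sequence. The corresponding counts for broad transitions were 252 (42.3%), 10 (1.68%) and 292 (49.0%). Beyond the LS flank lay MSLS in 94.0% of sharp and 92.3% of broad transitions. A gap without a class followed the LS flank of 89 sharp transitions (5.03%) and the MS flank of 96 (5.43%). For broad transitions these counts were 42 (7.05%) and 37 (6.21%).

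Sharp transitions were poor in genes, and poorer than broad ones. Genes were taken from the RefSeq gene table and assigned by their midpoint. Protein-coding genes stood at 4.56 per Mb ± 1.19 in sharp transitions and 8.19 per Mb ± 1.06 in broad transitions (SD, n = 10). Over the chromosomes the lowest, median and highest values were 2.57, 4.46 and 6.53 in sharp transitions, and 6.39, 8.13 and 9.84 in broad ones. The highest sharp value, on chromosome 10, exceeded only the lowest broad value, on chromosome 2. The difference was -3.63 genes per Mb ± 1.79, lower in sharp transitions on 10 of 10 chromosomes (exact sign-flip p = 0.00195, adjusted p = 0.0111). It passed as well within LS segments that had 1 sharp and 1 broad transition, at -4.15 genes per Mb (exact sign-flip test, adjusted p = 0.0332), an alternative chosen after seeing the data.

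Gene density was lower in transitions of 20 and 30 kb than in those of 50 kb and more. It was 4.32 per Mb ± 1.53 in transitions of 10 and 20 kb, 3.90 ± 1.82 at 30 kb and 5.68 ± 1.86 at 40 kb. Above the limit it was 7.79 ± 2.27 at 50 kb, 8.05 ± 2.19 at 60 and 70 kb, 7.06 ± 4.15 at 80 to 100 kb and 8.74 ± 1.77 over 100 kb (SD, n = 10). The 65 transitions of 10 kb alone held 5 genes, or 7.69 per Mb pooled over chromosomes, which is above the 5.54 per Mb at 40 kb and close to the 7.59 per Mb at 50 kb. With the limit at 20 kb in place of 40 kb the difference between the shorter and the longer transitions was -2.24 genes per Mb, and it passed the exact sign-flip test (adjusted p = 0.0111).

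Against their own flanks, sharp transitions lay well below MS, while the difference from LS did not pass. Sharp transitions had 4.56 protein-coding genes per Mb ± 1.19, against 11.7 ± 0.924 in the MS flanks. They were lower by 7.11 per Mb ± 1.31, on each of the 10 chromosomes (exact sign-flip p = 0.00195, adjusted p = 0.0111). Against the LS flanks, with 3.67 per Mb ± 0.718, sharp transitions were higher by 0.893 per Mb ± 1.46, on 7 of 10 chromosomes, with differences from -1.35 to 3.49 (exact sign-flip p = 0.0840, adjusted p = 0.218). With genes moved 10 kb towards lower coordinates this difference became 1.78 per Mb and passed (exact sign-flip test, adjusted p = 0.0398).

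**Figure D3:**
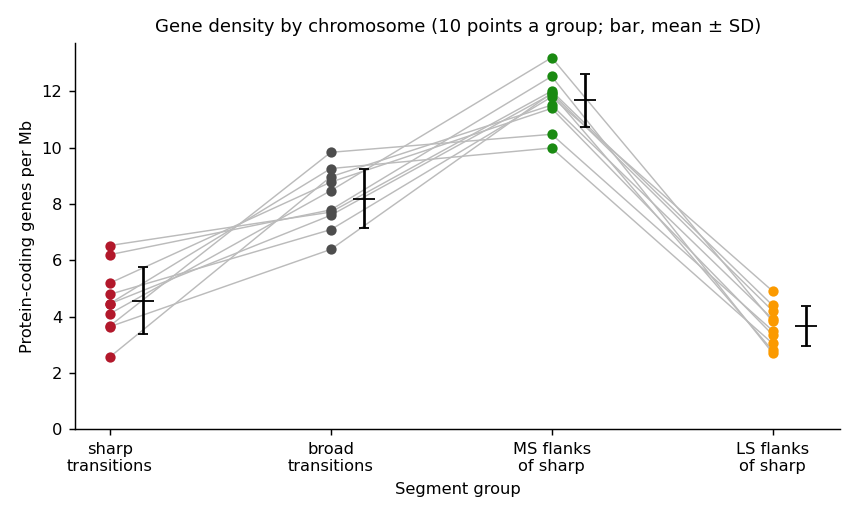
Protein-coding genes per Mb (y axis) in 4 groups of segments (x axis): sharp transitions, broad transitions, MS flanks of sharp transitions and LS flanks of sharp transitions. Each point is 1 of 10 chromosomes, grey lines join the points of a chromosome, and black bars give the mean ± SD. On every chromosome the sharp value lies below the broad and the MS values.

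Along the passage most of the fall in gene density lay on the MS side. In the MS flank of sharp transitions the density was 16.7 per Mb ± 6.39 between 50 and 60 kb from the transition, 12.9 ± 2.34 between 40 and 50 kb, and 8.19 ± 2.20 in the nearest 10 kb (SD, n = 10). Inside the transition the window next to MS had 5.02 per Mb ± 1.64, the inner windows 4.26 ± 2.15 and the window next to LS 4.43 ± 2.24. In the LS flank the values stayed between 2.56 and 4.49 per Mb over the first 100 kb. Between 90 and 100 kb into MS the density was again 8.47 per Mb ± 3.62. Windows farther away come only from flanks long enough to hold them, 1271 of 1769 transitions at 50 to 60 kb into MS and 621 at 90 to 100 kb. In broad transitions the window next to MS had 8.35 per Mb ± 4.86 and the window next to LS 6.21 ± 4.57. Sharp transitions were lower by 3.33 per Mb ± 5.62 in the window next to MS (8 of 10 chromosomes, exact sign-flip p = 0.0898, adjusted p = 0.218) and by 1.79 ± 5.25 in the window next to LS (6 of 10, p = 0.334, adjusted p = 0.568). Neither difference passed. The difference next to MS passed with a limit of 30 kb (-3.73 per Mb, exact sign-flip test, adjusted p = 0.0199).

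**Figure D4:**
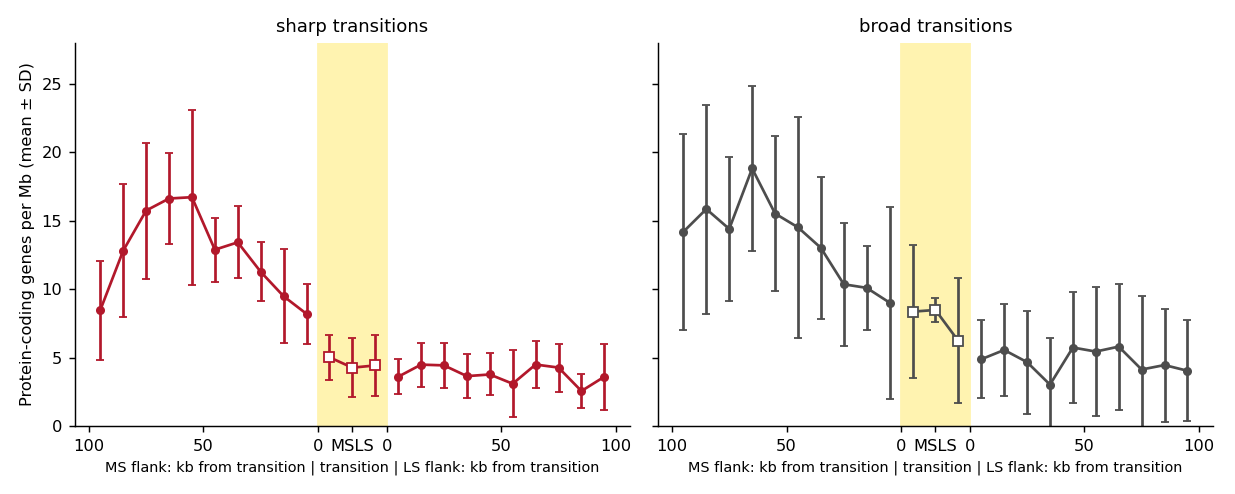
Protein-coding genes per Mb (y axis, mean ± SD over 10 chromosomes, lower bars cut at 0) in windows of 10 kb by distance from the transition in kb (x axis), for sharp transitions (left, red) and broad transitions (right, grey). Filled circles are flank windows, and open squares on yellow are, from left to right, the transition's window next to MS, its inner windows and its window next to LS. Inside the transition the sharp values lie between 4.26 and 5.02 and the broad values between 6.21 and 8.48.

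The step in gene content across the passage did not differ detectably between the widths. Within 50 kb of sharp transitions the MS flank had 10.8 genes per Mb ± 1.09 and the LS flank 3.98 ± 0.959, a step of 6.79 ± 1.35 that was positive on 10 of 10 chromosomes. The step across broad transitions was 6.64 ± 2.87. The difference between the steps was 0.149 genes per Mb ± 2.86, higher at sharp transitions on 5 of 10 chromosomes (exact sign-flip p = 0.879, adjusted p = 0.924). The nearest 50 kb of MS differed between sharp and broad by -0.574 genes per Mb ± 2.39 (p = 0.521, adjusted p = 0.739) and the nearest 50 kb of LS by -0.722 ± 1.11 (p = 0.0684, adjusted p = 0.218), by the same exact test. The SDs leave room for differences of several genes per Mb in the MS flank. The 2 groups were not fully separate, as 275 LS and 113 MS segments touched both a sharp and a broad transition. In the shorter of these segments the same windows counted in both groups. The direction of the step difference is not settled: with a limit of 20 kb it was -3.28 (exact sign-flip test, adjusted p = 0.0531), and the MS difference was then -2.82 and passed (adjusted p = 0.0332).

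Single transitions often showed no step in annotated genes at all. Of the 1769 sharp transitions 636 (36.0%) had more protein-coding genes in the nearest 50 kb of MS than of LS, and 189 (10.7%) had more on the LS side. In 944 the counts were equal, among them 874 (49.4%) with no gene on either side. Of the broad transitions 33.7% had more genes on the MS side, 11.6% had more on the LS side and 49.3% had none on either side.

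Sharp transitions were also set against MSLS segments under the same limit of 40 kb that lay between 2 segments of 1 class. Sharp transitions had 4.56 protein-coding genes per Mb ± 1.19, against 13.8 ± 6.47 in the 161 MSLS segments of at most 40 kb between 2 LS segments. They were lower by 9.27 per Mb ± 6.66, on 9 of the 10 chromosomes (exact sign-flip p = 0.00391, adjusted p = 0.0166). This difference shrank to -1.02 with a limit of 20 kb (exact sign-flip test, adjusted p = 0.924) and to -6.52 with 30 kb (adjusted p = 0.133). Of the 161 segments 58 were 40 kb long, and these held 37 of the genes. From the 183 MSLS segments of at most 40 kb between 2 MS segments, which had 5.13 per Mb ± 3.93, sharp transitions differed by -0.569 per Mb ± 4.86, lower on 6 of 10 chromosomes (exact sign-flip p = 0.703, adjusted p = 0.919). Both comparisons were added after seeing the data.

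Among the sharp transitions themselves, gene density differed by less than its SD over chromosomes between settings. It was 4.88 per Mb ± 3.41 beside LS flanks of 300 kb or more and 4.52 ± 1.09 beside shorter ones (SD, n = 10). It was 4.08 ± 1.82 where the MS flank led on to ESMS or ES and 5.00 ± 1.78 where it led back to MSLS. In the outer 20% of the chromosomes it was 5.12 ± 3.31, and in the middle 60% it was 4.54 ± 1.65. With rising coordinates it was 5.03 ± 2.40 where MS came first and 4.06 ± 1.18 where LS came first. These values overlap widely over the chromosomes and were not tested. Differences within chromosomes were not taken, so the overlap does not show how small they are.

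The sharp transitions held 229 of the 33146 classified protein-coding genes, or 0.691%, on 2.44% of the sequence. No protein-coding gene had its midpoint in 1573 of them (88.9%). That share was 53.0% in the longer broad transitions. In MSLS segments of at most 40 kb it was 87.4% between 2 MS segments and 68.9% between 2 LS segments. Of the sharp transitions 168 held 1 gene, 23 held 2 and 5 held 3. The 5 richest were on chromosome 1 from 103180001 to 103220000, from 189630001 to 189670000 and from 189900001 to 189940000 (40 kb each), on chromosome 8 from 110520001 to 110550000 and on chromosome 9 from 102000001 to 102030000 (30 kb each). All of their 15 genes are listed under LOC identifiers. The LS flanks of these 5 held 1 gene at most, although that on chromosome 1 after 189940000 was 820 kb long.

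Genes in sharp transitions were shorter than those of the MS flanks by the median. The median per chromosome was 2113 bp ± 657 in sharp transitions and 3328 bp ± 256 in MS flanks, a difference of -1215 bp ± 635 on 10 of 10 chromosomes (exact sign-flip p = 0.00195, adjusted p = 0.0111). The medians in sharp transitions rest on only 14 to 36 genes per chromosome, while the MS flanks held 1743 genes in all. The call was lost with means in place of medians (-360.2 bp, exact sign-flip test, adjusted p = 0.800) and with genes assigned by their lower coordinate (-673.5 bp, adjusted p = 0.365), and the sign turned with a limit of 20 kb (477.1 bp, adjusted p = 0.986). Sharp transitions differed from LS flanks, whose median was 1929 bp ± 238, by 184 bp ± 745, longer on 6 of 10 chromosomes (exact sign-flip p = 0.461, adjusted p = 0.712). Genes over 10 kb made up 10.9% of the 229 genes in sharp transitions, 12.6% of genes in MS flanks and 8.88% in LS flanks.

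Few class boundaries cut through a gene. The share of sequence inside gene bodies was not computed, so the counts below cannot show whether boundaries avoid genes. At the MS boundary 64 of 1769 sharp transitions (3.62%) lay inside a protein-coding gene, against 19 of 596 broad ones (3.19%). At the LS boundary the counts were 42 (2.37%) for sharp and 15 (2.52%) for broad transitions. Over the chromosomes the sharp minus broad difference was 0.156 percentage points ± 3.96 at the MS boundary (exact sign-flip p = 0.908, adjusted p = 0.924) and -0.171 ± 2.87 at the LS boundary (p = 0.859, adjusted p = 0.924). In 7 cases a single gene reached across the whole sharp transition. These genes were 51.7 to 148 kb long, the longest being LOC103654704 across the 30 kb transition on chromosome 4 from 229430001 to 229460000.

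Noncoding genes and pseudogenes did not differ detectably between sharp and broad transitions. Long noncoding RNA genes stood at 1.77 per Mb ± 1.14 in sharp and 2.30 ± 0.800 in broad transitions, a difference of -0.537 ± 1.14 (lower on 7 of 10 chromosomes, exact sign-flip p = 0.176, adjusted p = 0.332). Pseudogenes stood at 1.27 per Mb ± 0.505 in sharp and 1.54 ± 0.557 in broad transitions, a difference of -0.269 ± 0.502 (lower on 7 of 10, p = 0.127, adjusted p = 0.270, by the same exact test). Of all 45512 classified genes of any type 399, or 0.877%, had their midpoint in a sharp transition. Among them were 5 of 864 transfer RNA genes, 9 of 632 small nucleolar RNA genes, 5 of 238 small nuclear RNA genes, 2 of 163 microRNA genes and 0 of 212 ribosomal RNA genes with a class. These counts are too small to be set against the share of all genes.

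Of the 2674 classified protein-coding genes with a name as symbol or synonym, 12 lay in sharp transitions (0.449%, beside 0.691% of all protein-coding genes). 2 of these encode transcription factors of the MYB and bZIP families, MYB100 on chromosome 1 (152340001 to 152380000) and bZIP107 on chromosome 10 (50780001 to 50810000). The homeobox gene HB82 lay in a 20 kb transition on chromosome 6 (37920001 to 37940000). CNR4, of the family of cell number regulators, lay in a 40 kb transition on chromosome 1 (114420001 to 114460000). It was the only protein-coding gene with its midpoint there. The nitrate transporter gene Nrt1.1 had its midpoint in the MS flank, 6.76 kb from that transition. Nrt1.1 is 15045 bp long, so its body reached into the transition. Lsi6, a NIP aquaporin of the silicon transporter type, lay on chromosome 9 (5790001 to 5820000), and the aquaporin locus TIP4-2, annotated as a transcribed pseudogene, lay on chromosome 5 (95210001 to 95250000).

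Enzymes of amino acid metabolism were among the other named genes, which were picked for description after their positions were seen. AHAS109, an acetohydroxyacid synthase at the start of branched-chain amino acid synthesis, lay on chromosome 4 (100340001 to 100370000). CM2, a chorismate mutase on the way to phenylalanine and tyrosine, lay on chromosome 5 (94260001 to 94300000). cc9, a cystatin, which inhibits cysteine proteases, lay in a 20 kb transition on chromosome 4 (16620001 to 16640000), and a gene named vignain, after a cysteine protease, lay 12.6 kb into the LS flank of that transition. The other named genes were mTRF16 on chromosome 5, a gene named cyclotide on chromosome 7, and AAMT1 and AAMT3 on chromosome 9, which are described with their cluster.

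A pair of microRNA genes lay inside sharp transitions, both on chromosome 4. MIR169i, of the family that targets NF-YA transcription factors, lay in a 20 kb transition (49600001 to 49620000) that passed from a 40 kb MS segment to a 310 kb LS segment. MIR169d of the same family lay in that LS segment. MIR156i, of the family that targets SBP-box factors, lay in a 30 kb transition (142240001 to 142270000) beside a 180 kb MS segment and a 70 kb LS segment. The MS flanks of sharp transitions held 5 of the 163 microRNA genes (3.07%, beside 5.26% of protein-coding genes), namely MIR2275a, MIR2275b, MIR156d, MIR398b and MIR171g. The LS flanks held 7 (4.29%, beside 3.43% of protein-coding genes), namely MIR166l, MIR169m, MIR167a, MIR167g, MIR169d, MIR156a and MIR171n.

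Several clusters of related genes lay across a sharp transition (chosen after their positions were seen). The anthranilic acid methyltransferase genes, whose enzymes make the volatile methyl anthranilate, flanked a 30 kb LS segment on chromosome 9 that had a 40 kb sharp transition at each end. AAMT1 lay in the transition from 3400001 to 3440000, AAMT3 in that from 3470001 to 3510000, and AAMT2 30.9 kb into the MS flank beyond it. On chromosome 10, the transition from 82210001 to 82230000 had the genes bap-1a and bap1-b, of the basal layer antifungal proteins of the endosperm, in its 260 kb MS flank. In its 100 kb LS flank lay bap-3a and bap-3b. On chromosome 7, MEG1, of a family of small proteins expressed in the basal endosperm, lay 13.4 kb into the MS flank of the transition from 13340001 to 13380000, and its relative meg2 lay 309.3 kb into the LS flank.

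None of 38 classical maize genes with a class lay in a sharp transition, and 3 lay in a touching flank. Of all protein-coding genes 0.691% lay in sharp transitions, 5.26% in their MS flanks and 3.43% in their LS flanks, so these counts show nothing particular to classical genes. bt2, the small subunit of the starch enzyme ADP-glucose pyrophosphorylase, lay in MS with its midpoint 1.56 kb from the transition on chromosome 4 (61540001 to 61580000). Farther from a transition, and named after their positions were seen, were pep1 and ra1. pep1, a phosphoenolpyruvate carboxylase gene, lay in MS 179.8 kb from a transition on chromosome 9, and the inflorescence branching regulator ra1 lay in LS, 151 kb from one on chromosome 7. With windows of 10 kb, a distance under 10 kb does not settle the class of a gene.

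Protein-coding genes of the 24 lists matched by name lay in sharp transitions about as often as all protein-coding genes, at 5 of 667 (0.750%) beside 0.691%. 19 of the lists had no member in a sharp transition, among them the zeins (0 of 47), MADS-box factors (0 of 32), auxin genes (0 of 46), cytosolic ribosomal proteins (0 of 36), core histones (0 of 6) and DNA replication genes (0 of 7). At a background of 0.691% most lists of these sizes would hold no member, so these zeros say little. Transcription factors of 6 families (bHLH, bZIP, ERF, MYB, NAC and WRKY) had 2 of 209 members in sharp transitions, 14 in their MS flanks and 7 in their LS flanks. Zeins, the seed storage proteins, had 5 in MS flanks, namely z1A2_1, z1A2_2, z1A2_3, bz15 and dzs10, and a pseudogene, z1B_8, in an LS flank. The z1A2 genes named here shared 1 MS segment of 360 kb. Of 40 jasmonate and lipoxygenase genes 5 lay in MS flanks (TIFY9, TIFY10, TIFY17, opr8 and lox11) and opr6 in an LS flank. TIFY9 and TIFY10 shared 1 MS segment of 110 kb. Of all protein-coding genes 5.26% lay in MS flanks, and members that share a segment are not independent. Of 22 phosphate, nitrate and sugar transporter genes, 3 lay in LS flanks (pht3, pht13 and pht12) and 2 in MS flanks (sut4 and sfp2). pht13 and pht12 shared 1 LS segment of 2280 kb. Of 6 listed terpene synthase genes 2 lay in LS flanks (tps23 and tps10). TPS4 and TPS5, outside that list, shared 1 LS segment of 400 kb. These counts are too small to be set against the 3.43% of all protein-coding genes in LS flanks.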

How the data were processed

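The authors deposited 1 segmentation of the genome made from 12 libraries, with the position and timing class of each segment in windows of 10 kb, per the file headers. Per the submitters' processing notes the tools were SAMtools 1.9, Bowtie2 2.5.1 and Trimmomatic 0.39. How replicates were combined, the build, and the tool and thresholds behind the segmentation were not given in the sources used here. Genes came from the RefSeq table of Zm-B73-REFERENCE-NAM-5.0. Gene counts correlated best with the order of the classes within 10 kb of no offset on 10 of 10 chromosomes, among offsets up to 200 kb. No gene coordinate is printed.

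Densities were pooled over the segments of a chromosome, each flank counted once, and differences were compared with an exact sign-flip permutation test (two-sided, 10 chromosomes), at an adjusted p of 0.05. The test was checked on simulated data without clusters of genes and with the same rates on every chromosome. The members, lists and tests were chosen with earlier results of these data known. 6 of the 17 tests (neighbours of short MSLS segments, edge windows, boundaries in genes) were added after seeing these data. Named were list members in sharp transitions, classical genes there or within 50 kb in a flank, and microRNA genes there; the others named were chosen after their values were seen. Genes known by locus number took a synonym as name. Promoter GC content, planned, was not analysed here for lack of sequence. Python 3.11.15, numpy 2.4.6 and pandas 2.3.3 were used.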

Additional observations from a re-analysis of the deposited data

How the results depend on the processing

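No paired analysis was possible because the segmentation has no library columns. The alternatives were 139 settings and 170 cases with 1 chromosome left out. Of these, 111 and 154 kept the direction and side of the threshold. The lower gene density of sharp against broad transitions and against MS flanks kept both throughout, from -4.15 to -2.24 and from -7.36 to -5.97 genes per Mb.

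Most results that turned had not passed to begin with. With a limit of 20 kb, the difference (sharp minus broad) was -2.82 genes per Mb for the near MS flank (now passing), 0.459 for the near LS flank and -3.28 for the step. Boundaries in genes differed by -2.26 points at MS and 0.0439 at LS, gene length against MS flanks by 477.1 bp, and density against short MSLS segments between LS by -1.02. With 30 kb, these were -0.741 for the step, -1.16 points for the outer share, -2.12 points for MS boundaries in genes, -3.73 for the window next to MS (now passing), 0.616 against MSLS segments between MS and -6.52 against those between LS. With 50 kb, the near MS flank gave 0.281, the near LS flank 0.383, the step -0.102 and the outer share -0.683. In the middle 60%, the near MS flank gave 0.0614, MSLS segments between MS 0.329 and MS boundaries -0.219 points. The step was -0.285 over 100 kb, -0.137 with flanks of at least 50 kb and -0.00579 with genes moved 10 kb up. The outer 30% gave -4.49 points. Gene length against MS flanks lost its call by means (-360.2 bp) and by lower coordinates (-673.5 bp). With genes moved 10 kb down the LS flank difference passed at 1.78. In LS segments with 1 sharp and 1 broad end the window next to LS gave 0.480. The causes were not tested.

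Leaving out 1 chromosome at a time, the step ran from -0.283 to 0.820, the near MS flank from -0.847 to 0.0199, the outer share from -0.933 to 1.36, MSLS segments between MS from -1.32 to 0.221, MS boundaries from -0.468 to 1.05 and LS boundaries from -0.715 to 0.315. Depth per library is unknown, so how firmly a single window's class is set cannot be given. Windows of 10 kb bound the precision of every length.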

Other observations

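Sharp transitions were unevenly spread along the chromosomes, as broad ones were. In the lower-coordinate part, up to the middle of the chromosome length, lay 1221 sharp transitions (69.0%), and most broad transitions lay there too. The last 30% of the length held 84 sharp transitions (4.75%), against 60 broad ones (10.1% of the broad). Between 75% and 80% of the length, 13 sharp and 19 broad transitions stood, the only 5% bin with fewer sharp than broad. These are pooled counts over chromosomes with no test.

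The distance between neighbouring sharp transitions, from midpoint to midpoint, was 355 kb at the median, with quartiles of 165 and 835 kb. In 556 of 1759 cases (31.6%) it was at most 200 kb, and the longest such distance was 68.3 Mb.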
